A study of Mus musculus with 6 samples.

Results

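Mitochondrial protein import and cristae organisation was described here as a set of 46 genes among the 56941 genes of the count table. The set held every gene whose symbol starts with Timm or Tomm, 19 further named genes of the outer membrane insertase, the intermembrane space relay, the import motor, the presequence protease and the cristae junction, and no pseudogene. Expression was measured by polyA RNA sequencing in cells labelled as primary endothelial cells, which were isolated from mouse lungs with magnetic beads, freed of dead cells and kept in endothelial medium with serum. The EC-KO group (genotype FUNDC1-KO, 3 libraries) was set against the FL group (genotype FUNDC1-FLOX, a floxed gene, 3 libraries). Both groups were handled in the same way per the labels, and the Cre driver, strain, sex and age of the mice and the time in culture are not given in the labels. Whether each library stands for an animal of its own is not said in the labels, and the spread behind every p-value may therefore be technical. Fundc1 encodes a mitophagy receptor of the outer mitochondrial membrane.

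Nearly all proteins of mitochondria are encoded in the nucleus, made in the cytosol and carried into the organelle by dedicated machines. The TOM complex is the common entry gate of the outer membrane, from which precursors pass to the SAM complex for barrel proteins, to the small TIM chaperones and the TIM22 complex for carriers, or to the TIM23 complex and its ATP-driven motor for matrix proteins. Inside, the MICOS complex shapes the junctions where cristae meet the inner boundary membrane, and prohibitins form ring-shaped scaffolds in the same membrane.

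Total gene counts were 29.7 M to 33.5 M in EC-KO and 26.7 M to 34.3 M in FL libraries. Levels are in CPM, the count of a gene relative to its library's total after scaling by TMM factors. Each log2 fold change sets EC-KO over FL, comes from edgeR's quasi-likelihood test and is given ± its standard error (SE). A gene is called at a Benjamini-Hochberg adjusted p under 0.05 over all 18562 genes tested. Fundc1, the targeted gene, was at 14.1, 18.2 and 12.8 CPM in EC-KO 1, 2 and 3, against 25.1, 32.0 and 30.7 CPM in FL 1, 2 and 3 (log2 fold change -0.96 ± 0.19, adjusted p = 0.00796 in edgeR). The groups did not overlap for it. On principal components of all genes tested, the first (59.7% of the variance) separated the groups and the second (16.8%) set EC-KO 2 apart from the other libraries. Defining markers of endothelium were present in every library, and 8 of 12 were lower and 0 higher in EC-KO, with a summed level of 3035 to 6195 CPM in EC-KO and 7706 to 10720 CPM in FL. All 8 epithelial markers were higher in EC-KO (summed 5954 to 10073 CPM in EC-KO and 548 to 1543 CPM in FL), as were 5 of 8 fibroblast markers, of which 1 was lower (688 to 1488 CPM in EC-KO and 390 to 494 CPM in FL). Of macrophage markers 7 of 8 were lower (log2 fold changes of these 7 from -2.91 to -1.51), and the list summed to 1967 to 2726 CPM in EC-KO and 3193 to 4938 CPM in FL. Most of that sum was Lyz2, the marker that was not called (mean 2028 CPM in EC-KO and 3170 CPM in FL). Lower as well were 5 of 6 smooth muscle markers (264 to 376 CPM in EC-KO and 504 to 754 CPM in FL). Of 6 lymphocyte markers 1 was higher and 1 lower (193 to 531 CPM in EC-KO and 276 to 424 CPM in FL), and of 6 genes of cycling cells 2 were lower (83.8 to 101 CPM in EC-KO and 117 to 153 CPM in FL). No marker of these lists was at 0 counts in any library. The mean log2 level of the endothelial markers relative to FL was -1.69, -0.68 and -1.70 in EC-KO 1, 2 and 3. The part of these shifts in the values below was not tested, and in such bulk libraries fewer cells of a type and less RNA per cell cannot be told apart.

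The import and cristae genes moved in both directions, and mostly by little. Of 46 genes 43 passed the filter on low counts, and 6 of these rose and 4 fell in EC-KO. The 10 called genes are 23.3% of those tested, where 27.1% of all genes tested were called. The rises were 14.0% of the genes tested against 13.5% over all genes, and the falls 9.30% against 13.5%. The median log2 fold change was 0.08 (all genes 0.03), and the median size regardless of sign was 0.37 (all genes 0.50). Within a change of 1.5-fold lay 31 of the 43 genes (72.1%, against 56.0% of all genes), and 4 of them passed 2-fold (9.30%, against 23.0%). The groups did not overlap in 26 of the 43, where 45.4% of all genes did not overlap. EC-KO was higher in 15 of these (22.6% of all genes) and lower in 11 (22.8% of all genes). The share of called genes lies near the background and is no result about the set as a whole. The share without overlap lies above that of all genes, and this difference was not tested.

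The 6 genes that rose were Grpel2 and Hspa9 of the import motor, Timm10 and Timm8a1 of the small TIM chaperones, the metaxin Mtx1 and the protease subunit Pmpcb. The 4 that fell were Immt and Apool of the MICOS complex, Timm21 of the TIM23 complex and Timmdc1, which despite its symbol acts in the assembly of respiratory complex I. With upper-quartile scaling or library size alone 8 rose and 3 fell. All genes shifted likewise, with 2915 higher and 2167 lower under upper-quartile scaling and 2971 higher and 2192 lower with library size alone, against 2515 and 2514. When each library was left out in turn, the number that rose was 1, 6 and 2 without EC-KO 1, 2 and 3 and 2, 1 and 1 without FL 1, 2 and 3. The number that fell was 0, 6 and 1 without EC-KO 1, 2 and 3 and 4, 0 and 1 without FL 1, 2 and 3. Over all genes the calls of the same fits numbered 2832, 6740 and 3422 without EC-KO 1, 2 and 3 and 4366, 2626 and 2547 without FL 1, 2 and 3, against 5029 with all libraries. Grpel2 was the 1 gene of the 10 that was called in all 6 of these comparisons.

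**Figure D1:**
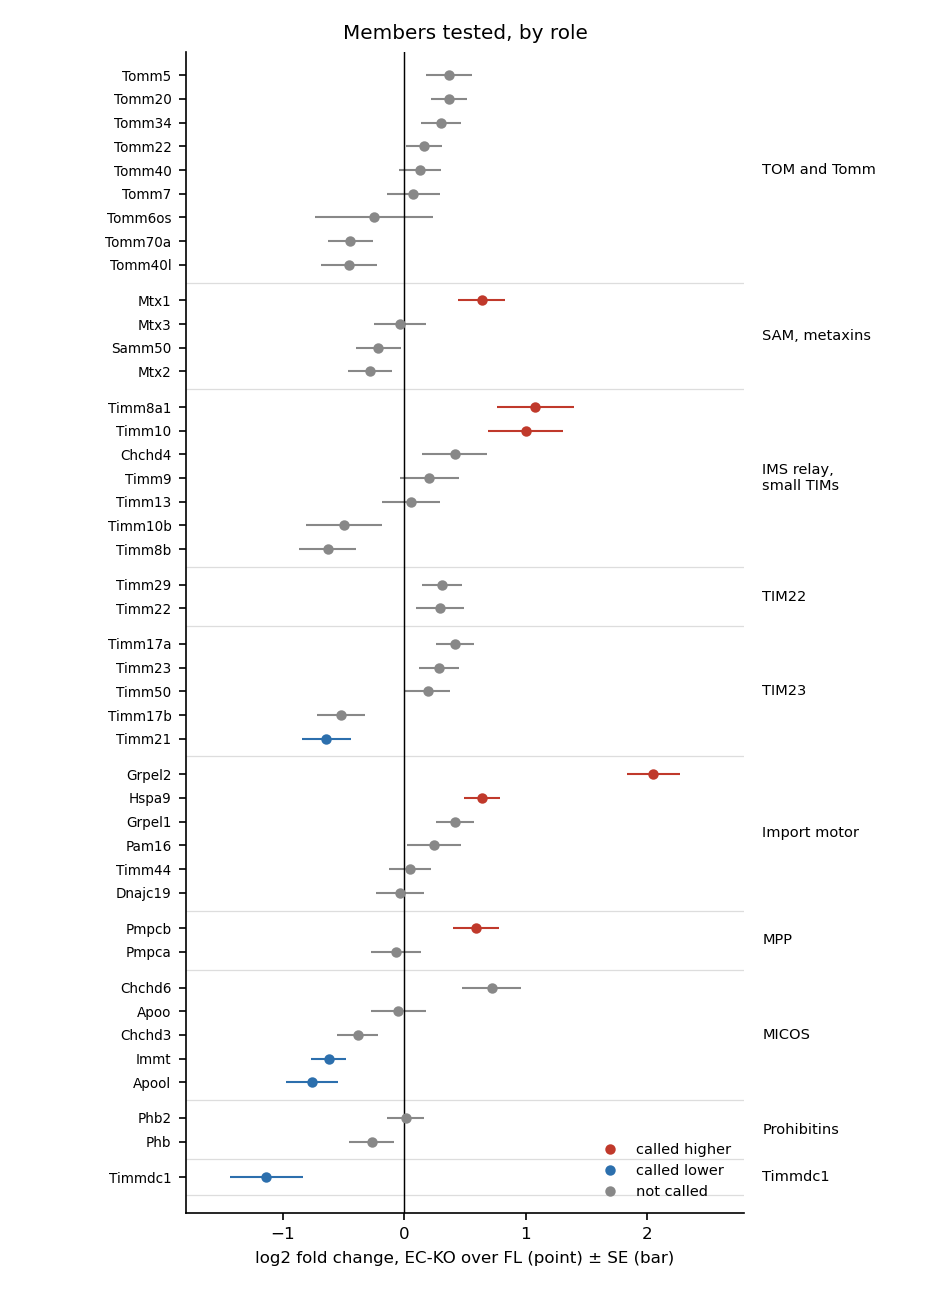
Log2 fold change of EC-KO over FL (x axis, points) with its standard error (bars) for the 43 genes tested, grouped by role from top to bottom. Grpel2 at 2.05 lies farthest from 0, Timmdc1 at -1.14 is the lowest, and none of the 9 TOM and Tomm genes was called.

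Promoter sequence was examined for the called genes and for the set as a whole. RefSeq promoters of GRCm38.p6 were at hand for 41 of the 46 genes, and not for Grpel2, Hspa9, Timm21, Tomm40l and Tomm7. In the 250 bases before the start, 7 motifs chosen after the expression values had been seen were searched on both strands. The ETS motif bound by GABP, a factor known to act on nuclear genes of mitochondria, written CCGGAAGT, was in 8 of 38 promoters of tested members (21.1%) and in 719 of 12455 promoters of all genes tested (5.77%). Its carriers were Mtx2, Mtx3, Phb2, Pmpcb, Timm23, Timm29, Timmdc1 and Tomm70a, of which Pmpcb rose, Timmdc1 fell and the other 6 were not called. The CCAAT box was in 13 of 38 (34.2%, against 39.4%), among them Immt and Apool. The ERRA motif TCAAGGTCA was in Timm8b alone among the 38 (2.63%, against 0.329%). The NRF1 palindrome (1.62% of all), the YY1 motif (0.690%), the CRE TGACGTCA (2.78%) and the ATF4-C/EBP composite TGATGCAA (0.666%) were in 0 of the 38. No matches of different motifs overlapped in these promoters, and a match is only a description of letters.

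The place of the ETS motif can be compared between Pmpcb, which rose, and Timmdc1, which fell. Immt and Apool, which fell, carry only the CCAAT box among the motifs searched. Shown here are these 4 called genes that carry a match. Each is the stretch of 250 bases that ends just before the RefSeq start, written on the gene's own strand from 5′ to 3′, with CCGGAAGT or CCAAT (or its reverse complement) in capitals. Pmpcb lies at chr5:21736910-21737159 (plus strand) and Timmdc1 at chr16:38522664-38522913 (minus strand). Immt lies at chr6:71831070-71831319 (plus strand) and Apool at chrX:112311102-112311351 (plus strand), all in GRCm38.p6.
Pmpcb: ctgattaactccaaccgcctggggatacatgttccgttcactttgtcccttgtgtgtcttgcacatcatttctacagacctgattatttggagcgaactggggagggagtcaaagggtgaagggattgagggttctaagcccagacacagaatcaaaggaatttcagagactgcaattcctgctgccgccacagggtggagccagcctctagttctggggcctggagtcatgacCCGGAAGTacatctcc
Timmdc1: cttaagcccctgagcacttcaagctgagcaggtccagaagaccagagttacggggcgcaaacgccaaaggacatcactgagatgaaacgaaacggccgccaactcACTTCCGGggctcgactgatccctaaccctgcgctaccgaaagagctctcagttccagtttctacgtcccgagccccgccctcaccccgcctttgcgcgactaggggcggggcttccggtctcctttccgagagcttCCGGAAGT
Immt: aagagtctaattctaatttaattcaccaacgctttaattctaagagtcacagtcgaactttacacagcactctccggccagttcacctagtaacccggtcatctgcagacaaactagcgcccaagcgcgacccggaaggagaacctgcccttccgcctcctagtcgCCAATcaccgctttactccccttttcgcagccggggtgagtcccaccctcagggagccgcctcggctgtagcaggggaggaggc
Apool: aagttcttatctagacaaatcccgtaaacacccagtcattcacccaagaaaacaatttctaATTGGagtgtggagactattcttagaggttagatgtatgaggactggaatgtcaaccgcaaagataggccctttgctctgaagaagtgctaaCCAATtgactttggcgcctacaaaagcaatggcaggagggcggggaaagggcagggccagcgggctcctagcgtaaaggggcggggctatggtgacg
The first bases of the match lay 16 bases before the start in Pmpcb (position -16), at -145 and -8 in Timmdc1, at -84 in Immt and at -189 and -97 in Apool. The GC content of these stretches was 51.6% in Pmpcb, 60.0% in Timmdc1, 55.6% in Immt and 49.2% in Apool. The ETS letters were thus found in a promoter of either direction of change.

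At the outer membrane, none of the 9 TOM and Tomm genes tested was called, and their log2 fold changes lay between -0.46 and 0.37. An unadjusted p under 0.05 was reached by 2 of them, and by 7540 of all 18562 genes tested, of which 27.1% were called. Per length, Tomm22, the central receptor of the gate, was the most abundant of them on the mean of the groups, with 23.4, 24.9 and 20.8 CPM per kilobase of exon in EC-KO 1, 2 and 3, against 20.8, 20.3 and 20.7 in FL 1, 2 and 3. Tomm34, a cytosolic cochaperone, exceeded it in EC-KO 1 and 3, with 24.0, 19.1 and 24.0 in EC-KO and a mean of 18.2 in FL. For Tomm22 the EC-KO libraries were barely higher (log2 fold change 0.16 ± 0.15, adjusted p = 0.445 in edgeR; 0.07 without EC-KO 2). Tomm20, the receptor for presequences, was at 103, 83.7 and 87.9 CPM in EC-KO and 72.0, 71.7 and 69.4 CPM in FL (0.37 ± 0.15, adjusted p = 0.0955). Tomm70a, the receptor for carrier precursors, pointed the other way with 54.4, 34.3 and 46.0 CPM in EC-KO and 61.5, 60.5 and 61.5 CPM in FL (-0.45 ± 0.19, adjusted p = 0.104). The groups did not overlap for either receptor, and the lowest library for Tomm70a was EC-KO 2 (-0.32 without it). Tomm20 was called without EC-KO 2 (adjusted p = 0.0418).

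The channel gene Tomm40 was at 16.4, 13.7 and 14.4 CPM in EC-KO and 13.2, 12.5 and 15.0 CPM in FL, with overlapping groups (0.13 ± 0.18, adjusted p = 0.611). Its paralog Tomm40l was at 4.39, 5.11 and 4.48 CPM in EC-KO and 5.12, 6.39 and 7.67 CPM in FL (-0.46 ± 0.23, adjusted p = 0.171), and 64.3% of its exon bases are shared with Nr1i3 on the other strand, so its count is uncertain. The small subunits Tomm5 and Tomm7 were at 0.37 ± 0.19 and 0.08 ± 0.22 (adjusted p = 0.175 and 0.821). The log2 fold change of Tomm34 was 0.30 ± 0.16 (adjusted p = 0.199). Tomm6, another small subunit, had 0 to 2 counts per library and was not tested, and 84.2% of its exon bases are shared with other genes of the table. The antisense gene Tomm6os, which shares bases with it, passed the filter with 10 to 19 counts per library (-0.25 ± 0.48, adjusted p = 0.729). Tomm20l had 0 counts in 5 libraries and 4 in EC-KO 2.

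Of the 4 genes for insertion of barrel proteins, Mtx1 rose and the others were not called. Mtx1 encodes a metaxin, a partner of the SAM complex on the cytosolic face. It was at 18.3, 12.8 and 18.4 CPM in EC-KO 1, 2 and 3, against 10.4, 10.7 and 10.7 CPM in FL 1, 2 and 3. All EC-KO libraries lay above all FL libraries, with EC-KO 2 nearest to them, and the mean was 16.5 ± 3.21 CPM in EC-KO and 10.6 ± 0.165 CPM in FL (SD, n = 3 each; log2 fold change 0.64 ± 0.20, adjusted p = 0.0414 in edgeR). The gene (ENSMUSG00000064068, chromosome 3, 89116388 to 89134395, minus strand in the table's coordinates) shares 43.5% of its exon bases with other genes, Thbs3 among them. The call was lost on leaving out EC-KO 1 (adjusted p = 0.139), EC-KO 3 (0.135) or any single FL library (0.107, 0.121 and 0.134 for FL 1, 2 and 3), and with no filter on low counts (0.0600). The channel gene Samm50 was at 39.7, 40.1 and 28.6 CPM in EC-KO and 40.6, 38.1 and 47.3 CPM in FL (-0.22 ± 0.18, adjusted p = 0.411). Mtx2, which binds Mtx1, was at 8.66, 8.81 and 8.10 CPM in EC-KO and 9.55, 11.1 and 10.5 CPM in FL. The log2 fold changes of Mtx2 and Mtx3 were -0.28 ± 0.18 and -0.04 ± 0.21 (adjusted p = 0.271 and 0.916), and the sign of Mtx3 turned under some alternatives.

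In the intermembrane space 2 of 7 genes tested rose and 0 fell, where 13.5% of all genes tested rose and 13.5% fell. With so few genes this count is no result about the group. Timm10, which forms the hexameric carrier chaperone with Timm9, was at 5.46, 3.39 and 3.62 CPM in EC-KO and 1.63, 2.66 and 1.92 CPM in FL. Every EC-KO library was above every FL library (log2 fold change 1.00 ± 0.31, adjusted p = 0.0408 in edgeR), from 43 to 189 counts per library. Timm8a1, the mouse counterpart of the gene of human deafness-dystonia syndrome, was at 3.29, 3.26 and 2.50 CPM in EC-KO and 1.67, 0.978 and 1.64 CPM in FL (1.08 ± 0.32, adjusted p = 0.0340), from 32 to 114 counts. The groups did not overlap for Timm8a1 either, and both are among the less abundant of the set. Timm10 (ENSMUSG00000027076, chromosome 2, 84657341 to 84660557, plus strand) kept its call on leaving out EC-KO 2 (0.0273) but lost it for EC-KO 1 (0.160), EC-KO 3 (0.0674) and FL 1, 2 and 3 (0.116, 0.0529 and 0.139). Timm8a1 (ENSMUSG00000048007, chromosome X, 133438005 to 133442614, minus strand) was called in none of the 6, with adjusted p of 0.110, 0.0566 and 0.0527 without EC-KO 1, 2 and 3 and 0.0544, 0.116 and 0.0808 without FL 1, 2 and 3.

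Timm8b, the most abundant small TIM per length, did not pass the test and pointed downwards. It was at 4.74, 5.64 and 3.65 CPM in EC-KO, all below the 7.62, 7.70 and 6.46 CPM of FL (-0.63 ± 0.23, adjusted p = 0.0726), and it was called without EC-KO 2 (0.0242). Of its exon bases 15.6% are shared with other genes, and 22.1% of those of Timm10b. Timm10b, a peripheral subunit on the TIM22 side, was at 1.24, 1.00 and 1.45 CPM in EC-KO and 1.86, 1.56 and 1.83 CPM in FL (-0.50 ± 0.31, adjusted p = 0.262). Timm9 and Timm13 were at 0.21 ± 0.24 and 0.05 ± 0.24 (adjusted p = 0.554 and 0.891), and without EC-KO 2 they were at 0.35 and -0.23. Chchd4, the oxidoreductase that folds these chaperones as they enter, was at 0.41 ± 0.27 (adjusted p = 0.273). Timm8a2, a paralog of Timm8a1, had 0 to 10 counts per library and was not tested.

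At the inner membrane, the TIM22 and TIM23 channels themselves were not called. Timm29, a subunit of the animal TIM22 complex, was at 34.2, 27.4 and 30.1 CPM in EC-KO and 21.9, 26.7 and 25.4 CPM in FL (0.31 ± 0.17, adjusted p = 0.195), and the channel gene Timm22 was at 0.29 ± 0.20 (adjusted p = 0.294). Timm23, the channel for presequence proteins and the most abundant of its complex per length, was at 34.7, 28.5 and 28.2 CPM in EC-KO and 27.0, 25.2 and 22.7 CPM in FL (0.29 ± 0.16, adjusted p = 0.225). The groups did not overlap for these 3 genes, each with EC-KO higher, as held for 22.6% of all genes tested. Of the 5 genes of the TIM23 complex, 2 were apart with EC-KO higher and 2 with EC-KO lower. Timm50, the receptor of the complex, was at 0.19 ± 0.19 (adjusted p = 0.474).

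Timm21 was the 1 called gene of the TIM23 complex, and it fell. Its protein tethers the TIM23 complex to the outer membrane gate and to respiratory chain assembly. Levels were 7.02, 7.81 and 6.40 CPM in EC-KO, below the 9.63, 10.7 and 12.8 CPM of FL in every library (log2 fold change -0.64 ± 0.20, adjusted p = 0.0422 in edgeR). The gene (ENSMUSG00000024645) lies on chromosome 18, 84964316 to 84969649, minus strand. Without EC-KO 1, EC-KO 3, FL 2 or FL 3 it was not called (adjusted p = 0.114, 0.121, 0.104 and 0.149), nor with upper-quartile scaling, library size alone or no filter (0.0589, 0.0567 and 0.0565).

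The import motor gave the largest rise of the set. Grpel2, 1 of the 2 nucleotide exchange factors that recharge the mitochondrial Hsp70 with ATP, was at 53.9, 52.0 and 72.1 CPM in EC-KO 1, 2 and 3, against 17.5, 13.9 and 11.5 CPM in FL 1, 2 and 3. Every EC-KO library was far above every FL library, with means of 59.3 ± 11.1 CPM in EC-KO and 14.3 ± 3.05 CPM in FL (SD, n = 3 each). The rise was 4.15-fold (log2 fold change 2.05 ± 0.22, adjusted p = 0.000606 in edgeR). Over the 16 alternatives the log2 fold change stayed between 1.87 and 2.19 and the gene was called each time, with an adjusted p of at most 0.00485. The gene (ENSMUSG00000024580, chromosome 18, 61845495 to 61859396, minus strand) shares no exon bases with another gene of the table.

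Grpel1, the other exchange factor, was at 31.2, 28.3 and 27.3 CPM in EC-KO and 23.7, 20.2 and 21.3 CPM in FL, without overlap, and did not pass the test (0.41 ± 0.16, adjusted p = 0.0782). Of its exon bases 11.6% are shared with another gene. Of the counts of both genes, Grpel2 made up 63.4%, 64.7% and 72.5% in EC-KO and 42.6%, 40.8% and 35.0% in FL. Counts favour Grpel2, whose exons sum to 6759 bases against 3528 for Grpel1. Per length, Grpel2 made up 47.4%, 48.9% and 57.9% in EC-KO and 27.9%, 26.5% and 21.9% in FL, with means of 51.4% ± 5.68 in EC-KO and 25.4% ± 3.13 in FL (SD, n = 3 each). Per length it was thus below Grpel1 in every FL library and in EC-KO 1 and 2, and above it in EC-KO 3.

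Hspa9, the mitochondrial Hsp70 that pulls precursors into the matrix, was by far the most abundant gene of the set. Per length it was at 70.4, 69.2 and 66.9 CPM per kilobase in EC-KO and 47.3, 44.3 and 41.2 in FL, and in CPM at 303, 298 and 288 in EC-KO and 204, 191 and 177 in FL. The EC-KO libraries lay close together and above FL (1.56-fold, log2 fold change 0.64 ± 0.15, adjusted p = 0.0147 in edgeR). Hspa9 (ENSMUSG00000024359, chromosome 18, 35070467 to 35087410, minus strand) was not called without EC-KO 1, FL 2 or FL 3 (adjusted p = 0.0533, 0.0694 and 0.0910). The other parts of the motor were not called, namely the anchor Timm44 at 0.05 ± 0.17 (adjusted p = 0.862) and Pam16 and Dnajc19, the J-protein pair that controls the Hsp70, at 0.25 ± 0.22 and -0.04 ± 0.20 (0.443 and 0.911).

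**Figure D2:**
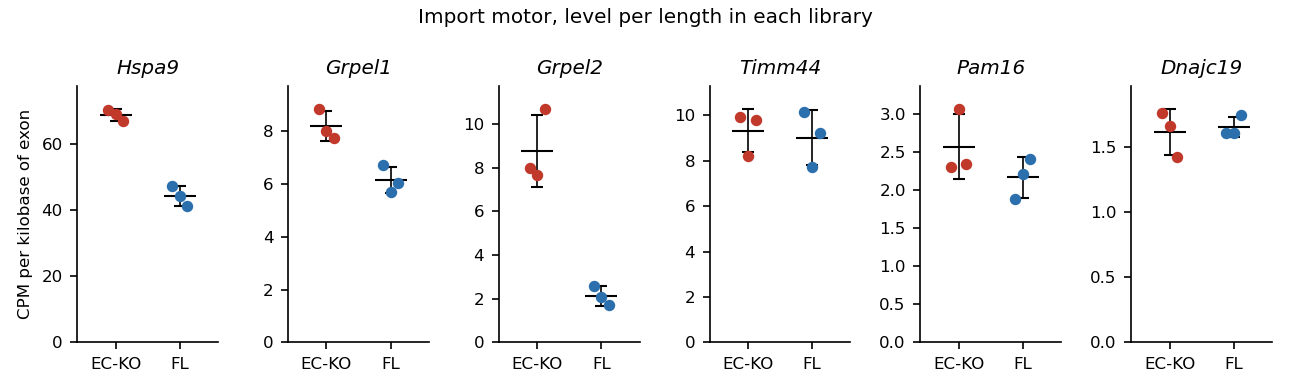
Level per length (CPM per kilobase of exon, y axis starting at 0) of the 6 import motor genes in each EC-KO (left) and FL (right) library, with group mean and SD. Grpel2 averaged 8.78 in EC-KO and 2.12 in FL, and Hspa9 68.8 in EC-KO and 44.3 in FL, while the groups overlapped for Timm44, Pam16 and Dnajc19.

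The presequence protease of the matrix consists of Pmpcb, its catalytic subunit, and Pmpca. Pmpcb rose, with 63.3, 40.3 and 57.5 CPM in EC-KO against 34.5, 36.0 and 36.6 CPM in FL (log2 fold change 0.59 ± 0.19, adjusted p = 0.0476 in edgeR). EC-KO 2 was the EC-KO library nearest to FL. The gene (ENSMUSG00000029017, chromosome 5, 21942139 to 21962150, plus strand) was called on leaving out EC-KO 2 (adjusted p = 0.00303). The call was lost on leaving out EC-KO 1 (0.170), EC-KO 3 (0.131) or any single FL library (0.131, 0.136 and 0.139 for FL 1, 2 and 3). It was also not called with limma-voom (0.0577) or with library sizes that leave out genes of the mitochondrial genome (0.0530). Pmpca was at 38.8, 24.0 and 37.6 CPM in EC-KO and 38.2, 33.3 and 33.5 CPM in FL, with EC-KO 2 the lowest library (-0.07 ± 0.21, adjusted p = 0.836; 0.09 without EC-KO 2), and 20.4% of its exon bases are shared with other genes.

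Among the 5 MICOS genes 2 fell and 0 rose, where 13.5% of all genes tested fell and 13.5% rose. With so few genes this count is no result about the complex. Immt, the core subunit that anchors cristae junctions, was at 53.0, 57.1 and 48.7 CPM in EC-KO and 79.3, 83.7 and 82.0 CPM in FL. No EC-KO library reached the FL range (means 52.9 ± 4.22 CPM in EC-KO and 81.7 ± 2.18 CPM in FL, SD, n = 3 each; log2 fold change -0.63 ± 0.14, adjusted p = 0.0131 in edgeR). Apool, a cardiolipin-binding subunit, was at 5.08, 5.36 and 4.33 CPM in EC-KO and 7.81, 7.36 and 9.84 CPM in FL (-0.76 ± 0.22, adjusted p = 0.0307), again without overlap. Immt (ENSMUSG00000052337, chromosome 6, 71808315 to 71854372, plus strand) was not called without EC-KO 1 or FL 2 (adjusted p = 0.0503 and 0.0593), and Apool (ENSMUSG00000025525, chromosome X, 111221031 to 111282452, plus strand) was not called without EC-KO 1, EC-KO 3, FL 2 or FL 3 (0.0820, 0.0940, 0.0606 and 0.118).

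The remaining MICOS genes of the set were not called and did not share a direction. Chchd3, the most abundant of them per length and a direct partner of Immt, was at 31.1, 32.4 and 25.1 CPM in EC-KO, below the 34.1, 40.8 and 40.7 CPM of FL (-0.38 ± 0.17, adjusted p = 0.120; 0.0414 without EC-KO 2). Its paralog Chchd6 was at 4.22, 4.45 and 3.53 CPM in EC-KO, above the 2.43, 2.26 and 2.71 CPM of FL (0.72 ± 0.24, adjusted p = 0.0556). Chchd6 was called higher in 4 of the 16 alternatives, namely upper-quartile scaling, library size alone, the filter of 1 CPM in 3 libraries and DESeq2. Apoo was at 4.97, 5.55 and 4.11 CPM in EC-KO and 5.19, 4.55 and 5.39 CPM in FL, with overlapping groups (-0.05 ± 0.22, adjusted p = 0.892). Summed over the 5 genes the level was 98.4, 105 and 85.7 CPM in EC-KO and 129, 139 and 141 CPM in FL. That sum was carried mostly by Immt and Chchd3 and leaves out Minos1, a MICOS subunit of the companion list described below. Minos1 pointed upwards without a call, at 38.3, 37.8 and 31.6 CPM in EC-KO and 26.8, 27.1 and 29.4 CPM in FL (0.37 ± 0.16, adjusted p = 0.106 in edgeR).

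The prohibitins were not called. Phb2 was at 42.3, 36.7 and 38.5 CPM in EC-KO and 42.9, 36.3 and 37.5 CPM in FL (0.01 ± 0.15, adjusted p = 0.962), and Phb averaged 21.8 ± 3.36 CPM in EC-KO and 26.3 ± 3.74 CPM in FL (SD, n = 3 each; -0.27 ± 0.19, adjusted p = 0.310). Both had overlapping groups. Timmdc1, the complex I assembly factor, fell with 2.97, 3.42 and 2.29 CPM in EC-KO against 4.62, 5.59 and 8.86 CPM in FL (-1.14 ± 0.30, adjusted p = 0.0246 in edgeR). It was the lowest fold change of the set, and its FL libraries were spread widely, with FL 3 highest. Timmdc1 (ENSMUSG00000002846, chromosome 16, 38318709 to 38343025, minus strand) was not called without EC-KO 1, EC-KO 3, FL 2 or FL 3 (adjusted p = 0.0744, 0.0743, 0.0525 and 0.0991).

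**Figure D3:**
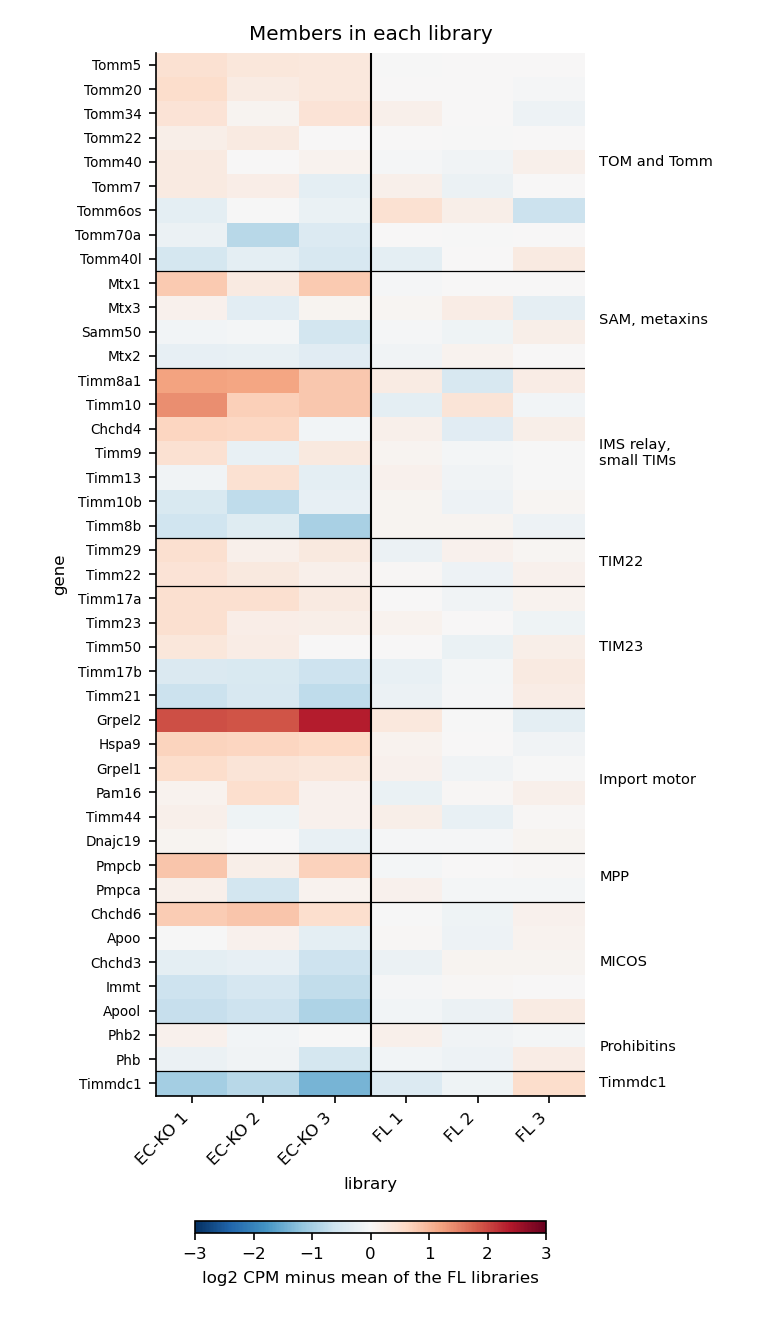
Log2 CPM of each of the 43 genes tested (down the page, grouped by role) in each library (across, EC-KO left of the line and FL right), relative to the mean of the FL libraries. The red bands of Grpel2, Timm8a1, Timm10 and Hspa9 and the blue bands of Immt, Apool, Timm21 and Timmdc1 hold over all 3 EC-KO libraries.

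Pairs of paralogs or partners were then compared within each library, since a ratio of counts in 1 library does not depend on how libraries are scaled. In 9 of 10 pairs the ratios of the EC-KO and FL libraries did not overlap, Phb over Phb2 being the exception. Of these 9 pairs 6 hold a gene already called above, and no background share was computed for ratios of other genes. An exact permutation test of 3 against 3 libraries cannot go below 0.10 (two-sided), which these 9 pairs reached (exact p = 0.1, 0.111 after Benjamini-Hochberg adjustment over the 10 pairs), so none passed 0.05. The log2 ratio of Grpel1 over Grpel2 was -0.79, -0.88 and -1.40 in EC-KO and 0.43, 0.54 and 0.89 in FL, a difference of -1.64. For Timm8a1 over Timm8b the means were -0.62 ± 0.15 in EC-KO and -2.37 ± 0.52 in FL (SD, n = 3 each), a difference of 1.75. For Timm10 over Timm10b they were 1.72 ± 0.41 in EC-KO and 0.22 ± 0.49 in FL, a difference of 1.51, with 32 to 60 counts of Timm10b per library.

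Timm17a and Timm17b are alternative partners of the TIM23 channel. Timm17a was at 31.5, 31.5 and 26.9 CPM in EC-KO and 22.5, 20.9 and 23.9 CPM in FL (0.42 ± 0.16, adjusted p = 0.0775), and Timm17b at 8.86, 8.69 and 7.82 CPM in EC-KO and 10.3, 11.5 and 14.6 CPM in FL (-0.52 ± 0.20, adjusted p = 0.0814). Neither was called in the main fit, and Timm17a was called with upper-quartile scaling and with library size alone. Their log2 ratio, which restates these 2 changes, was 1.82 ± 0.04 in EC-KO and 0.90 ± 0.21 in FL (SD, n = 3 each), a difference of 0.92. In the MICOS complex Chchd3 over Chchd6 was at 2.85 ± 0.03 in EC-KO and 3.96 ± 0.19 in FL (difference -1.10), and Apoo over Apool at -0.02 ± 0.06 in EC-KO and -0.71 ± 0.14 in FL (difference 0.70). The difference was 0.57 for Tomm40 over Tomm40l, 0.90 for Mtx1 over Mtx2, -0.66 for Pmpca over Pmpcb and -0.28 for Phb over Phb2 (exact permutation p = 0.3 for the last).

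**Figure D4:**
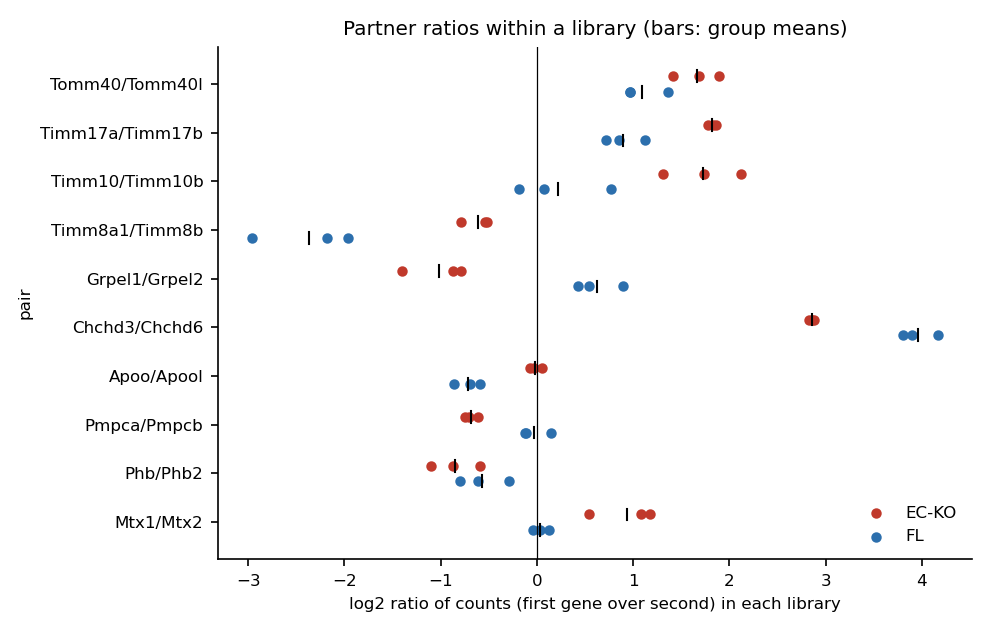
Log2 ratio of counts of the first gene over the second (x axis) in each EC-KO (upper points of a pair) and FL (lower points) library for 10 pairs, with group means as bars. The groups are apart in 9 pairs, and since the counts are not divided by gene length, 0 does not mark equal levels.

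A companion list of 39 further genes of import, matrix folding, inner membrane proteolysis and cristae shape gave 38 genes that could be matched, all of them tested. Of these 3 rose and 5 fell (21.1% called, where 27.1% of all genes tested were called). The rises were 7.89% against 13.5% over all genes, and the falls 13.2% against 13.5%. The median log2 fold change was -0.07 (all genes 0.03). The groups did not overlap in 17 of the 38, where 45.4% of all genes did not overlap. EC-KO was higher in 4 of these (22.6% of all genes) and lower in 13 (22.8% of all genes). These shares are no result about the list as a whole. Opa1, the dynamin-like GTPase that keeps cristae junctions tight, fell with 32.4, 30.6 and 29.0 CPM in EC-KO against 48.0, 56.9 and 51.0 CPM in FL (-0.76 ± 0.15, adjusted p = 0.00731 in edgeR). It was called in each of the 16 alternatives. Of the genes for matrix folding, Hspe1, the lid of the chaperonin, was at 28.0, 26.6 and 26.7 CPM in EC-KO and 67.6, 102 and 79.8 CPM in FL (-1.62 ± 0.18, adjusted p = 0.000820), and it too was called each time. Its partner Hspd1, which shares 4.24% of its exon bases with Hspe1, was at 159, 141 and 147 CPM in EC-KO and 204, 251 and 197 CPM in FL (-0.55 ± 0.16, adjusted p = 0.0364). The chaperonin genes thus lay below FL in every EC-KO library, while Hspa9 and Grpel2 lay above. Dnaja3, a J-protein of the matrix, fell as well (-0.93 ± 0.21, adjusted p = 0.0122), with 14.0, 17.7 and 11.2 CPM in EC-KO and 24.1, 27.3 and 30.4 CPM in FL.

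Of the proteases, Lonp1 of the matrix rose, with 79.9, 63.6 and 75.5 CPM in EC-KO against 48.0, 51.9 and 52.7 CPM in FL (0.52 ± 0.15, adjusted p = 0.0335 in edgeR). Htra2 of the intermembrane space fell (-0.60 ± 0.19, adjusted p = 0.0441), although 43.7% of its exon bases are shared with other genes. Tmem11, an inner membrane protein linked to MICOS, rose with 36.1, 46.9 and 35.4 CPM in EC-KO against 24.3, 18.5 and 24.0 CPM in FL (0.82 ± 0.19, adjusted p = 0.0132), and 20.7% of its exon bases are shared with a gene on the other strand. Chchd10, a small protein of the intermembrane space with low counts, rose (1.34 ± 0.35, adjusted p = 0.0228), with 4.42, 7.15 and 2.91 CPM in EC-KO and 2.20, 1.77 and 1.74 CPM in FL. Among libraries left out in turn, Lonp1 was called only without EC-KO 2 (0.00759), with an adjusted p of 0.123 and 0.1003 without EC-KO 1 and 3 and of 0.115, 0.111 and 0.111 without FL 1, 2 and 3. Htra2 was likewise called only without EC-KO 2 (0.00873), with 0.143 and 0.118 without EC-KO 1 and 3 and 0.1002, 0.0972 and 0.103 without FL 1, 2 and 3. Hspd1 was not called without EC-KO 1, EC-KO 3, FL 2 or FL 3 (0.0783, 0.0923, 0.151 and 0.0653). Neither was Chchd10 without EC-KO 1, FL 2 or FL 3 (0.0578, 0.0804 and 0.0910), Dnaja3 without FL 3 (0.0526) or Tmem11 without FL 2 (0.0661). With all libraries, Hspd1 and Htra2 lost the call with upper-quartile scaling (0.0575 and 0.0657) and library size alone (0.0791 and 0.0595), and Lonp1 and Htra2 with no filter (0.0749 and 0.0558). A block for the replicate numbers took the call from Hspd1, Lonp1 and Htra2 (0.0907, 0.0880 and 0.0958).

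**Figure D5:**
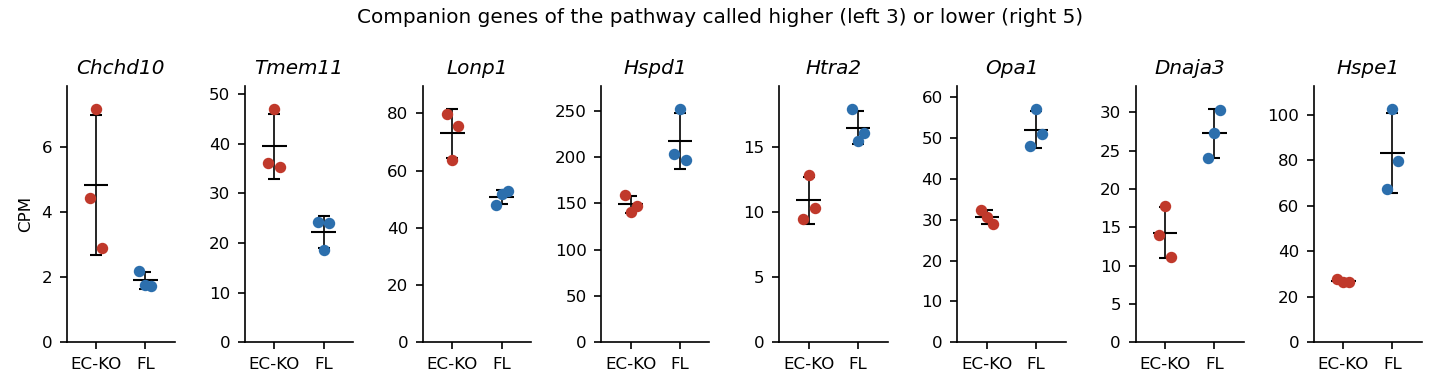
CPM (y axis starting at 0) of the 8 called companion genes in each EC-KO (left) and FL (right) library, with group mean and SD. Hspe1 is at 26.6 to 28.0 CPM in EC-KO and 67.6 to 102 CPM in FL. The groups are apart in all 8 panels, whose genes were picked by their call, and in 17 of all 38 companion genes (45.4% of all genes tested).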

How the data were processed

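PolyA RNA of 6 libraries was analysed, 3 EC-KO and 3 FL. STAR 2.7.10b, featureCounts 2.0.3 and mm10 are named, without role, in the submitters' processing notes, and the strand setting is not given in the sources used here. Raw gene counts and gene lengths make up the deposited table per the file headers, and the deposited summary of alignments is also in counts. Alignments to several places (9.10% to 11.5%) or ambiguous between genes (3.60% to 3.98%) were not assigned in it, so counts of overlapping or near-identical genes are uncertain. Of 52000 gene identifiers shared with GENCODE M21 (GRCm38), 2.90% had the same start, so coordinates of genes are those of the table with the build unresolved. A symbol was found for 51948 of 56941 genes. A further 2 per-sample columns match no sample in the labels and were not used.

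Counts were tested as deposited with edgeR 4.0.16 (R 4.3.3; filterByExpr, TMM, robust glmQLFit and glmQLFTest, no covariates, two-sided, Benjamini-Hochberg over 18562 genes). The script was tested on simulated data. Each SE is the absolute log2 fold change over the root of F. The common biological coefficient of variation was 25.5%. CPM per kilobase uses the table's summed exon length. Partner ratios had 0.5 added to each count. The labels do not say that same-numbered libraries are pairs, so the fit has no block. Deviations of same-numbered libraries correlated at 0.05, 0.07 and -0.18, which with so few libraries cannot exclude pairing. Alternatives were other scalings, filters, DESeq2 1.42.0, limma-voom 3.58.1, a fit that was not robust, a block, library sizes without mitochondrially encoded genes and each library left out.

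The members and lists were chosen with earlier results of these data known. The text gives every library's value for called members, the most abundant member of each role per length and the genes of the partner pairs, except Phb, which is given by group means. Companion genes are named where called, up to 4 in a direction by p, and Htra2 beyond that to complete the called ones. Minos1, which was not called, is named as a MICOS subunit. Values of other members were chosen after they were seen. Figures were drawn with matplotlib 3.10.9.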

Additional observations from a re-analysis of the deposited data

How the results depend on the processing

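The number of members that rose (6) or fell (4) stayed within 1.5 times under the scalings, filters, DESeq2, limma-voom and the fit that was not robust. With the replicate block, whose numbers are not said to pair the libraries in the labels, 2 rose and 1 fell. Over all genes 3848 were called with this block, against 5029 in the main fit. Grpel2, Hspa9 and Immt were the members that kept the call. Lost with the block were Mtx1 (adjusted p = 0.0895 in edgeR), Timm10 (0.0859), Timm8a1 (0.069), Timm21 (0.0970), Pmpcb (0.0902), Apool (0.0786) and Timmdc1 (0.0562). Without single libraries the rises numbered 1 to 6 and the falls 0 to 6, and the companion genes 0 to 4 higher and 2 to 7 lower. Companions that fell numbered 3 with upper-quartile scaling and 8 with DESeq2, against 5 in the main fit. Over all genes the falls numbered 2167 and 3081 in these fits, against 2514. Called members kept their call in 87 of 100 cases over the 10 alternatives that use all libraries. The median log2 fold change of the members was 0.15 with upper-quartile scaling, 0.15 with library size alone, 0.13 with the filter of 1 CPM in 3 libraries and 0.044 to 0.14 without single libraries. Of members, 8 that were not called turned their sign. With upper-quartile scaling the log2 fold changes were 0.041 for Mtx3, 0.038 for Dnajc19, 0.010 for Pmpca, 0.023 for Apoo, and with library size alone 0.060 for Mtx3, 0.049 for Dnajc19, 0.035 for Pmpca, 0.0305 for Apoo. Phb2 was at -0.010 without a filter and -0.013 with library sizes that leave out mitochondrially encoded genes. Without single libraries the values ran from -0.035 to 0.22 for Tomm7, from -0.20 to 0.066 for Mtx3, from -0.23 to 0.19 for Timm13, from -0.11 to 0.033 for Dnajc19, from -0.064 to 0.10 for Timm44, from -0.19 to 0.094 for Pmpca, from -0.18 to 0.046 for Apoo and from -0.051 to 0.053 for Phb2. The cause of these changes was not tested. Leaving out a library also lowers the number of samples, and calls over all genes then ran from 2547 without FL 3 to 6740 without EC-KO 2. Low counts limit Timm10, Timm10b and Timm8a1.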
